A study of Mus musculus with 36 samples.

Results

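Myelin is made in the brain by mature oligodendrocytes, which wrap axons in many turns of their own membrane. Its compact part is held together by a small set of abundant membrane proteins, while adhesion proteins face the axon, gap junction proteins couple glial cells, and cytoskeletal proteins, enzymes and carriers serve the cell body and its processes. Myelinated fibre bundles cross the striatum, so RNA of these genes is abundant in striatal tissue.

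Transcripts of 35 genes of myelin structure and of mature oligodendrocytes were examined in the striatum, the caudate/putamen together with the nucleus accumbens, of 4 inbred mouse strains: C57BL/6J, 129P3/J, SWR/J and DBA/2J. The genes were listed by name and function, with earlier results of these data known, and fell into 5 role groups. Their counts beside the shares of all genes are therefore a description. Of the 35, 33 had at least 1 detected probe set that named a single gene, among 13224 genes represented in the whole series. Trf, the iron carrier transferrin, was represented only by a probe set that also names another gene, and Enpp2 was not analysed here.

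Adult males of 8 to 10 weeks received chronic morphine, acute morphine or saline. The chronic morphine group was injected with doses that started at 10 mg/kg and ended at 40 mg/kg over 5 days. The acute morphine group was given saline and then a single dose of 20 mg/kg, and the saline group was given saline throughout. Tissue was taken 4 h after the final injection in every group. Each of the 12 groups of strain and treatment had 3 arrays, each array being a pool of 3 mice, so that 36 arrays were measured and the spread between mice cannot be seen. In such bulk tissue, fewer oligodendrocytes and less RNA per oligodendrocyte cannot be told apart.

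Values are log2 of the deposited intensity. A gene is represented by its brightest detected probe set, and a level is set only against the level of the same probe set on other arrays. Array medians lay between an intensity of 119 and 133, and 27212 of 45101 probe sets were detected. Of 10 medium spiny neuron markers, which define the striatum, 8 were measured, with a summed level of 14.15 to 14.37 after chronic morphine, 14.14 to 14.39 after acute morphine and 14.20 to 14.48 after saline (log2). The 33 genes summed to 15.31 to 15.74 after chronic morphine, 15.43 to 15.66 after acute morphine and 15.41 to 15.91 after saline. Among the array's control probe sets, 3 saline arrays stood apart. The mean of 15 probe sets for poly-A control RNA, each centred on its own mean, was -3.40 on 129P3/J saline array 3 and -3.30 on DBA/2J saline array 3, where the array after these had -0.80. In C57BL/6J, array 1 of the saline group differed in the control for Gapdh, a gene used to check RNA quality: its 3′ minus the 5′ probe set was 0.72, where no other array was above 0.12.

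The promoter windows of 4 genes are shown because these genes carry the changes described below. Opalin and Pllp fell after both morphine treatments, Apod was the gene that rose after both, and Mag had a clear strain pattern. Each window is the 300 bases around the annotated start in GRCm38.p6 (RefSeq), 5′ to 3′ on the strand of the gene. Capitals mark ACAAAG or its reverse complement CTTTGT, a core recognised by factors of the SOX family, among which Sox10 is known to drive myelin genes. The letters were found in 18.7% of all 32851 windows, and in 11 of the 34 windows of the 24 listed genes that had one. A match is a description of the letters only.
Opalin, chr19:41077064-41077363, minus strand: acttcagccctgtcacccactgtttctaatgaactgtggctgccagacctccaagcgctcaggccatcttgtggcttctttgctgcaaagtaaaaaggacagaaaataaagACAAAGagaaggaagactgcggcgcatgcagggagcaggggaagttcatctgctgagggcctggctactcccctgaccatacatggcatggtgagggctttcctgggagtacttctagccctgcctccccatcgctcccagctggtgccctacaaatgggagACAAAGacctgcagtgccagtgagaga
Pllp, chr8:94696193-94696492, minus strand: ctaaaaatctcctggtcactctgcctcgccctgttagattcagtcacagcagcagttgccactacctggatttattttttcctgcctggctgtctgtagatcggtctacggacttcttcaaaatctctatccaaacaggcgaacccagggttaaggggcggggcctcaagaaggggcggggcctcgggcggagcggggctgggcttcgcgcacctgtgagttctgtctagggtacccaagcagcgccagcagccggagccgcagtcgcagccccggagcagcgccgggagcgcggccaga
Apod, chr16:31314759-31315058, minus strand: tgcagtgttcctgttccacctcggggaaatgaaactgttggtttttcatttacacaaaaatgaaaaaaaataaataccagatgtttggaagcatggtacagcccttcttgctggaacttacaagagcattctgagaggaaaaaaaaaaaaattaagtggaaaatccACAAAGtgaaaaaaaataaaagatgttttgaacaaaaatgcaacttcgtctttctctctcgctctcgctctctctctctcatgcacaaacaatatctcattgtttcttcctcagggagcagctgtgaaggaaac
Mag, chr7:30914814-30915113, minus strand, the first of 3 listed windows: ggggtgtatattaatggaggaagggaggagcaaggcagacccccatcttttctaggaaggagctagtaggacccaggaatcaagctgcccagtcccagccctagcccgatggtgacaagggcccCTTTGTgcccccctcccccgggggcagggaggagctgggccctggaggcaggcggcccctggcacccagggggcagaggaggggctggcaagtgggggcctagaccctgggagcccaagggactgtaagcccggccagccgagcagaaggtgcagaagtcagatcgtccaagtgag
The Opalin window held 2 matches, the Apod and Mag windows 1 each, and the Pllp window 0.

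The first comparison asked what morphine did to these transcripts over the 4 strains. After chronic morphine the genes were mostly lower than after saline. Of 33, 16 fell and 1 rose (limma, adjusted p under 0.05), against 4.39% of all genes lower and 1.35% higher. The median difference of the 33 was -0.23 on the log2 scale, against -0.02 over all genes. After acute morphine 8 fell and 2 rose, against 1.74% of all genes lower and 2.92% higher, with a median of -0.05 against 0.02. The F-test for any morphine effect passed a false discovery rate of 1% for 15 of the 33, against 9.25% of all genes. These counts include Tmem125, which was above the detection limit on 4 chronic, 2 acute and 11 saline arrays. A filter on mean signal, which Tmem125 does not pass, gave 16 falls after chronic and 7 after acute morphine. The F-test then called 14. Without the 3 saline arrays, 14 fell and 1 rose after chronic morphine and 6 fell and 0 rose after acute morphine. No share of all genes is given for this fit or for the filter on mean signal, so these counts are a description.
With arrays of the same treatment and number treated as a random block, 5 genes were lower and 0 higher after chronic morphine, against 0.34% and 0.136% of all genes. After acute morphine 2 were lower and 0 higher, against 0.136% and 0.628%, and the F-test called 3, against 0.582%. The 5 were Pllp, Opalin, Evi2a, Gjb1 and Adamts4, and the 2 were Pllp and Opalin. Of these, Gjb1 lies near the detection limit, which it passed on 7 chronic, 12 acute and 12 saline arrays. Over the 3 strains other than C57BL/6J, a comparison chosen after the data were seen, 4 genes fell and 0 rose after chronic morphine, against 0.62% of all genes lower and 0.227% higher. After acute morphine 4 fell and 2 rose, Ndrg1 and Apod, against 1.57% lower and 5.8% higher.

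**Figure D1:**
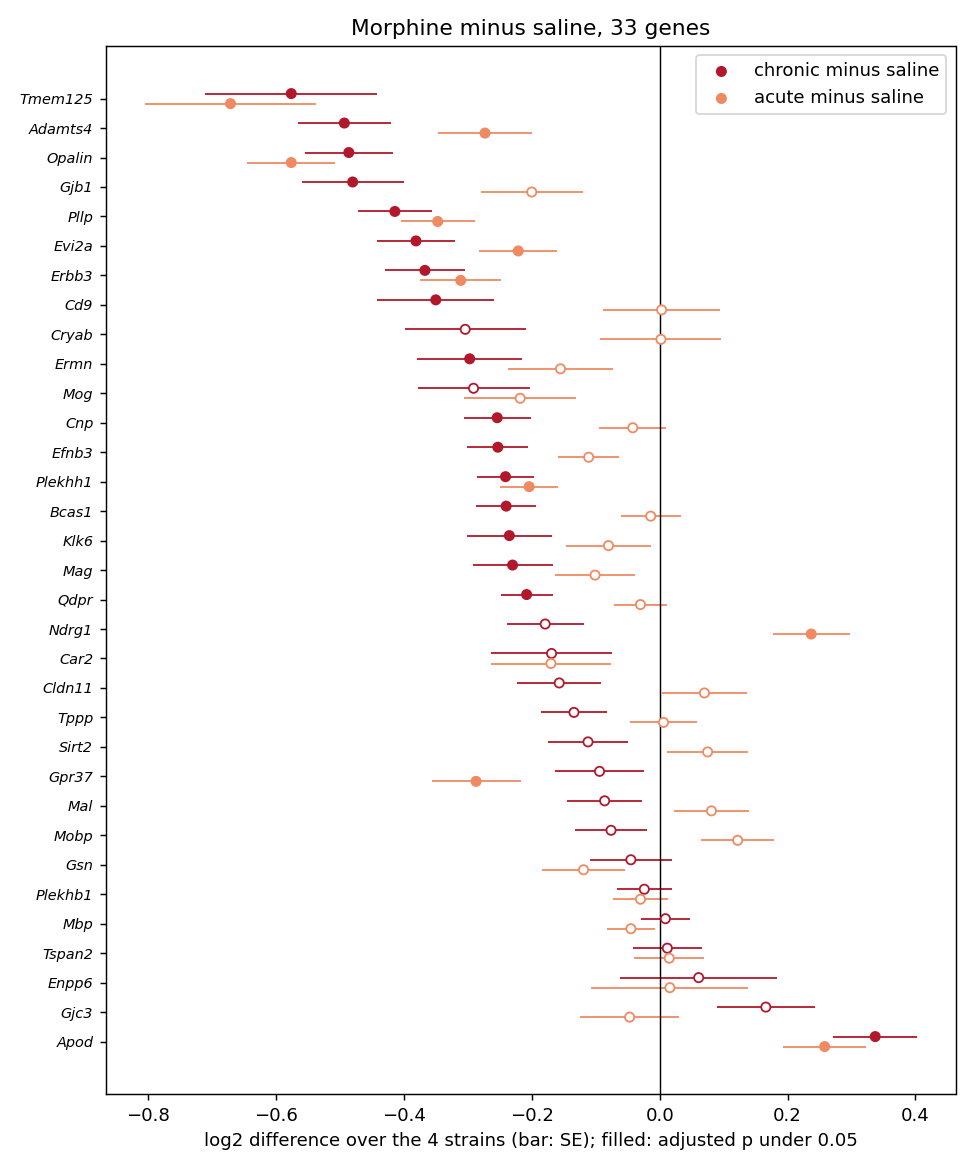
Log2 difference from saline over the 4 strains for each of the 33 genes, after chronic morphine (dark) and acute morphine (light), with the SE as a bar and filled points for an adjusted p under 0.05. Most points lie left of 0, and Apod is the gene that rose after both.

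Of the 10 compact myelin and membrane proteins, 4 fell after chronic morphine, namely Pllp, Opalin, Cd9 and Tmem125. After acute morphine 4 fell as well, Pllp, Opalin, Gpr37 and Tmem125. Opalin, a glycoprotein of the oligodendrocyte membrane, had a lowest, median and highest level of 8.21, 8.55 and 8.75 after chronic morphine, 8.10, 8.46 and 8.92 after acute morphine, and 8.54, 9.02 and 9.76 after saline (12 arrays each). The ranges overlapped, and the highest values were those of saline arrays. It fell by 0.49 ± 0.068 after chronic morphine (SE, limma adjusted p = 0.00012) and by 0.58 ± 0.068 after acute morphine (adjusted p = 3.9e-06). With the random block the adjusted p were 0.0095 and 0.00051.
In C57BL/6J, Opalin was at 8.21, 8.75 and 8.43 after chronic morphine, 8.92, 8.67 and 8.80 after acute morphine, and 9.58, 9.76 and 9.50 after saline. No morphine array of this strain reached the saline arrays. In DBA/2J it was at 8.51, 8.74 and 8.48 after chronic morphine, 8.30, 8.10 and 8.25 after acute morphine, and 9.07, 8.69 and 9.05 after saline, and the acute arrays lay below both other groups.
Pllp, the membrane proteolipid plasmolipin, had 8.44, 8.58 and 8.88 after chronic morphine, 8.32, 8.69 and 9.00 after acute morphine, and 8.60, 8.91 and 9.62 after saline (lowest, median and highest). It fell by 0.41 ± 0.058 after chronic morphine (limma adjusted p = 0.00012) and by 0.35 ± 0.058 after acute morphine (adjusted p = 0.00054). The ranges overlapped over the strains, while in C57BL/6J the chronic arrays at 8.60, 8.88 and 8.54 and the acute arrays at 9.00, 8.89 and 9.00 all lay below the saline arrays at 9.43, 9.62 and 9.62.
Tmem125 had the largest fitted falls of the 33, 0.58 ± 0.13 after chronic and 0.67 ± 0.13 after acute morphine, at a mean level of 6.56 that lies just under the detection limit. It passed the limit on 4 chronic, 2 acute and 11 saline arrays, so it was kept mainly through the saline group in which it was high, and its falls are a description. Mbp, which binds the inner faces of the myelin membrane, did not pass either test. Its level was 12.61, 12.69 and 12.78 after chronic morphine, 12.47, 12.66 and 12.80 after acute morphine and 12.60, 12.67 and 12.83 after saline, so the groups overlapped almost wholly.

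All 5 genes of surface and adhesion proteins were lower after chronic morphine, and 4 passed the test: Mag, Evi2a, Efnb3 and Erbb3. After acute morphine 2 passed, Evi2a and Erbb3. Evi2a, a membrane protein gene, had 8.69, 8.95 and 9.27 after chronic morphine, 8.78, 9.10 and 9.41 after acute morphine and 9.10, 9.33 and 9.62 after saline. It fell by 0.38 ± 0.061 after chronic morphine (limma adjusted p = 0.00069) and by 0.22 ± 0.061 after acute morphine (adjusted p = 0.034). The random block moved these to 0.023 and 0.23. In each of the 4 strains the highest chronic array lay below the lowest saline array.
Erbb3, a receptor for neuregulins, had 7.57, 8.09 and 8.75 after chronic morphine, 7.98, 8.14 and 8.58 after acute morphine and 8.26, 8.48 and 9.06 after saline. It fell by 0.37 ± 0.063 after chronic and by 0.31 ± 0.063 after acute morphine (limma adjusted p = 0.0012 and 0.0040). The random block moved these to 0.057 and 0.099. Mag, the sialic acid-binding adhesion protein next to the axon and the brightest of this group, fell by 0.23 ± 0.063 after chronic morphine (adjusted p = 0.031, with the random block 0.22).

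Of the 2 gap junction proteins, Gjb1 fell after chronic morphine by 0.48 ± 0.080 (limma adjusted p = 0.00092, with the random block 0.037). Its mean level of 7.055 lies near the detection limit, which it passed on 7 chronic, 12 acute and 12 saline arrays, so the size of this fall is uncertain. Gjc3, the brighter of the 2, had 8.51, 8.73 and 9.19 after chronic morphine, 8.20, 8.53 and 8.82 after acute morphine and 8.39, 8.54 and 8.98 after saline. Its difference from saline was 0.17 ± 0.077 after chronic morphine and -0.05 ± 0.077 after acute morphine, and neither passed. A second, dimmer probe set of Gjc3 gave -0.06 and -0.07.

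Of the 9 cytoskeletal and signaling genes, 4 fell after chronic morphine, Cnp, Ermn, Plekhh1 and Bcas1. Cnp, a phosphodiesterase of non-compact myelin, had 11.21, 11.51 and 11.77 after chronic morphine, 11.48, 11.70 and 11.89 after acute morphine and 11.32, 11.70 and 12.19 after saline. It fell by 0.25 ± 0.052 after chronic morphine (limma adjusted p = 0.0054, with the random block 0.095) and differed by -0.04 after acute morphine.
Ndrg1, a gene whose human form is mutated in a hereditary neuropathy, was higher after acute morphine and lower after chronic than after acute morphine. Its level was 9.83, 10.08 and 10.43 after chronic morphine, 10.33, 10.54 and 10.67 after acute morphine and 9.92, 10.27 and 10.58 after saline. It rose by 0.24 ± 0.060 after acute morphine (limma adjusted p = 0.022, with the random block 0.165). The chronic value of -0.18 ± 0.060 did not pass. Chronic minus acute was -0.42 ± 0.060 (adjusted p = 0.00015, with the random block 0.0046). In each of the 4 strains every acute array lay above every chronic array.

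Of the 7 measured enzymes, proteases and carriers, 3 fell after chronic morphine, Qdpr, Adamts4 and Klk6, and Apod rose. Adamts4, a protease that cleaves proteoglycans, had 6.50, 7.40 and 7.90 after chronic morphine, 6.60, 7.61 and 8.06 after acute morphine and 6.98, 8.00 and 8.33 after saline. The low ends are SWR/J arrays. It fell by 0.49 ± 0.073 after chronic morphine (limma adjusted p = 0.00024, with the random block 0.023). After acute morphine it fell by 0.27 ± 0.073 (limma adjusted p = 0.029, with the random block 0.26).
Apod, a lipocalin that carries small lipids, had 10.58, 11.09 and 11.55 after chronic morphine, 10.74, 11.00 and 11.28 after acute morphine and 10.25, 10.68 and 11.17 after saline. It rose by 0.34 ± 0.065 after chronic morphine (limma adjusted p = 0.0035) and by 0.26 ± 0.065 after acute morphine (adjusted p = 0.021). With the random block these were 0.050 and 0.14. A dimmer probe set of Apod gave 0.16 after chronic and 0.06 after acute morphine, and neither passed. Qdpr, a pteridine reductase and the brightest of the group, fell by 0.21 ± 0.041 after chronic morphine (limma adjusted p = 0.0038, with the random block 0.085). Car2, a carbonic anhydrase also made by the choroid plexus, gave -0.17 ± 0.094 after each treatment and did not pass. The 4 measured of 10 choroid plexus markers had no call, with a summed level of 10.43 to 12.89 after chronic morphine, 10.51 to 12.31 after acute morphine and 10.40 to 12.77 after saline, and their part in the Car2 values was not tested.

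**Figure D2:**
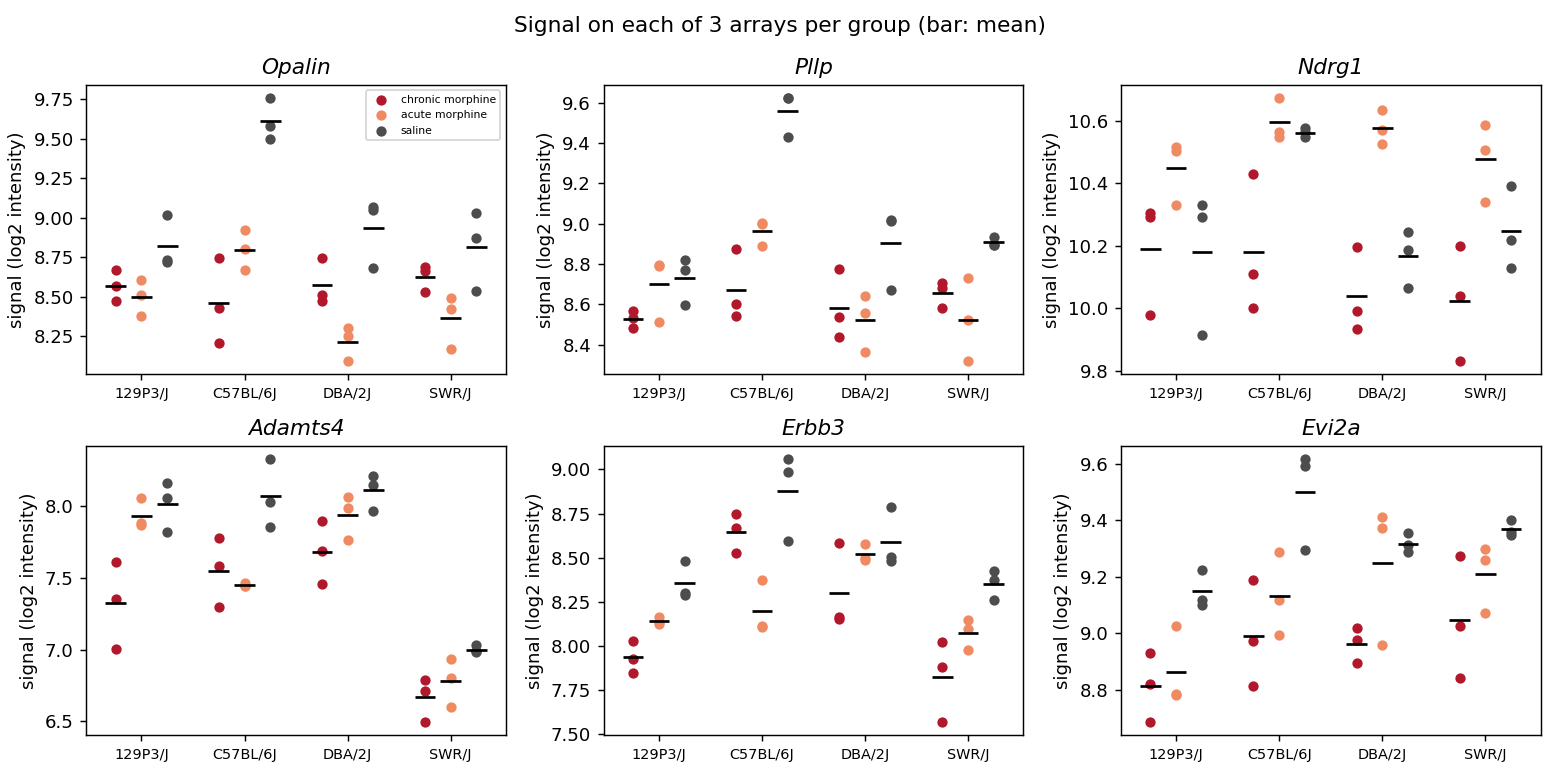
Log2 signal on each of 3 arrays per group for the 6 genes with the smallest p in the morphine F-test, by strain, with chronic morphine, acute morphine and saline from left to right and the group mean as a bar. The C57BL/6J saline arrays of Opalin (9.50 to 9.76) and Pllp (9.43 to 9.62) stand above all other arrays.

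Chronic and acute morphine were also compared directly. Of the 33, 13 were lower and 2 higher after chronic than after acute morphine, against 17.5% of all genes lower and 6.08% higher, with a median of -0.14 against -0.03. The 2 higher genes were Gpr37 and Gjc3, and 21 of the 36 arrays, left out singly, took 1 or both of these calls away. With the random block 4 were lower, Cnp, Bcas1, Ndrg1 and Qdpr, and 0 higher, against 5.69% and 1.51% of all genes. Of the genes lower than saline, 7 fell after both treatments, Pllp, Opalin, Tmem125, Evi2a, Erbb3, Plekhh1 and Adamts4. Tmem125 is counted here although it was kept mainly through the saline arrays. Both contrasts use the same saline arrays, and no share of all genes is given for this overlap, so the 7 are a description. The other detected probe sets of Plekhh1 gave -0.20 and -0.11 after acute morphine, and neither passed. After chronic morphine they gave -0.03, which did not pass, and -0.38, which passed.

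Within the strains, 6 genes fell after chronic morphine in C57BL/6J, Pllp, Opalin, Evi2a, Efnb3, Plekhh1 and Qdpr, against 2.1% of all genes called there in either direction. Opalin fell by 1.15 (limma adjusted p = 0.00011) and Pllp fell by 0.89 (adjusted p = 0.00022). Leaving out 1 array at a time gave 2 to 18 genes, with 18 when chronic array 2 was left out, 10 without saline array 3, 3 without saline array 1, and 2 without saline array 2, chronic array 1 or chronic array 3. Without the 3 saline arrays that stood apart it gave 2. In 129P3/J, DBA/2J and SWR/J limma called 0 genes, against 0.00756%, 0.0151% and 0.0151% of all genes, and 9, 12 and 9 of the 33 had an unadjusted p under 0.05. After acute morphine 4 genes fell in C57BL/6J, Pllp, Opalin, Erbb3 and Plekhh1, against 0.431% of all genes, and Opalin alone in DBA/2J, against 0.907%. The 4 became 2 without saline array 1 or 2 and 1 without acute array 3, and the call in DBA/2J was lost without saline array 1 or 3 or acute array 1 or 3. Without the 3 saline arrays that stood apart the counts were 2 in C57BL/6J and 0 in DBA/2J. limma called 0 in 129P3/J and SWR/J after acute morphine, against 0.0302% and 0.0681%, with 4 and 5 genes at an unadjusted p under 0.05.
These falls were not shown to differ between the strains. The interaction of strain and morphine passed for 0 of the 33 and for 0% of all genes, with 7 of the 33 at an unadjusted p under 0.05. The smallest adjusted p were 0.54 for Opalin, 0.64 for Pllp and 0.85 for Erbb3 (limma).

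The next comparison asked how the strains differed. The strain F-test passed for 19 of the 33 genes, against 12.4% of all genes, and 10 of these also had a morphine effect. C57BL/6J was the strain with the highest mean for 24 genes and with the lowest for 0, against 25.66% and 29.06% of all genes. Against the mean of the 4 strains, 21 genes were higher in C57BL/6J and 0 lower, against 6.46% of all genes higher and 4.52% lower, with a median of 0.15 against -0.002. In 129P3/J 1 was higher and 11 lower, against 4.36% and 4.31%. In DBA/2J 4 were higher and 3 lower, against 3.25% and 4.49%, and in SWR/J 0 were higher and 5 lower, against 4.2% and 4.68%; in SWR/J 1 gene was higher at an unadjusted p under 0.05 (limma).
The C57BL/6J difference was given also within each treatment, a comparison chosen after the data were seen. It was called higher for 7 genes after chronic morphine, 2 after acute morphine and 21 after saline, against 2.68%, 0.968% and 5.57% of all genes. The medians were 0.13, 0.09 and 0.27, against 0.005, -0.02 and 0.01 over all genes. Whether these counts differ between treatments was not tested.

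**Figure D3:**
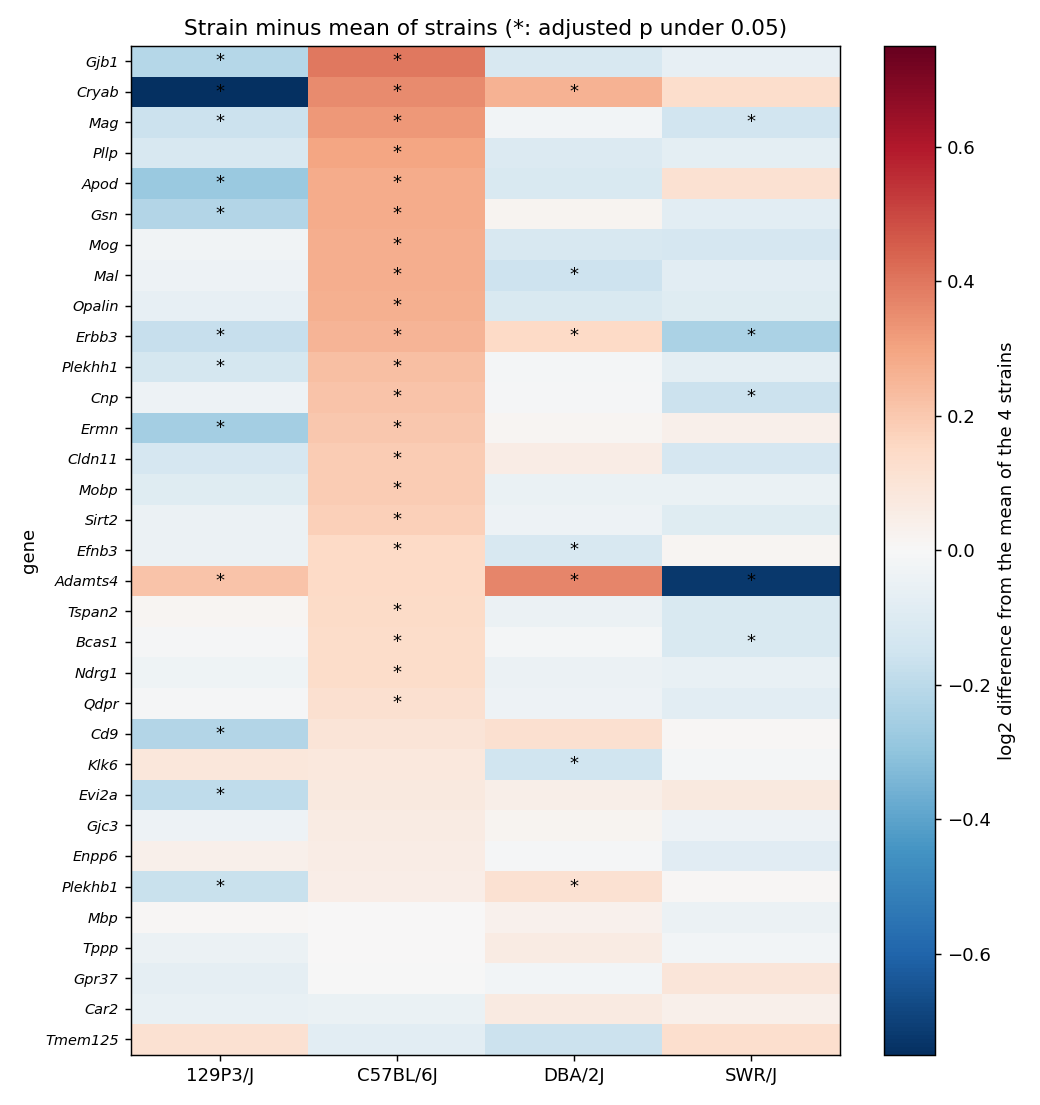
Log2 difference of each strain from the mean of the 4 strains for each of the 33 genes, with a star for an adjusted p under 0.05. The C57BL/6J column holds 21 stars, all on higher values.

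Cryab, a small heat shock protein, had the largest 129P3/J difference. Its lowest, median and highest level was 8.80, 9.15 and 9.56 in 129P3/J, 9.56, 9.94 and 10.58 in SWR/J, 9.95, 10.23 and 10.57 in C57BL/6J and 9.74, 10.25 and 10.49 in DBA/2J (9 arrays each). On this probe set no 129P3/J array lay above an array of the other strains. The 129P3/J value was -0.75 ± 0.067 from the mean (limma adjusted p = 1.1e-09), and C57BL/6J and DBA/2J were higher by 0.35 and 0.26. The second Cryab probe set gave -0.72 in 129P3/J, but its ranges overlapped, with 8.28 to 9.20 in 129P3/J and 8.57 to 10.48 in C57BL/6J. It was also lower after chronic morphine than after saline, by a log2 difference of -0.57 ± 0.11 (limma adjusted p = 0.0030).
Adamts4 had 6.50, 6.80 and 7.03 in SWR/J, 7.00, 7.87 and 8.16 in 129P3/J, 7.29, 7.58 and 8.33 in C57BL/6J and 7.45, 7.97 and 8.21 in DBA/2J. SWR/J was at -0.73 ± 0.052 (limma adjusted p = 9.3e-12), and its highest array overlapped only the lowest array of 129P3/J. A second Adamts4 probe set was above the detection limit on the 9 arrays of C57BL/6J, at 6.85 to 7.99, and on 0 arrays of the other strains. It was kept only through C57BL/6J, and nothing is drawn from it.
Apod had 10.73, 11.20 and 11.55 in C57BL/6J, 10.25, 10.67 and 10.90 in 129P3/J, 10.63, 11.05 and 11.27 in SWR/J and 10.47, 10.79 and 11.12 in DBA/2J. Its difference from the mean was 0.28 ± 0.046 in C57BL/6J and -0.28 ± 0.046 in 129P3/J (limma adjusted p = 6.1e-05 and 6.4e-05). The ranges of 129P3/J and C57BL/6J overlapped. The dimmer Apod probe set gave 0.09 in C57BL/6J, which did not pass, and -0.18 in 129P3/J, which passed.
Mag had 10.30, 10.45 and 10.93 in C57BL/6J, 9.81, 10.00 and 10.17 in 129P3/J, 9.73, 10.04 and 10.32 in SWR/J and 9.95, 10.15 and 10.28 in DBA/2J. C57BL/6J was higher by 0.32 ± 0.044 (limma adjusted p = 3.3e-06), and its lowest array lay above all arrays of 129P3/J and DBA/2J. Erbb3 was higher by 0.26 in C57BL/6J and by 0.15 in DBA/2J, and at -0.24 in SWR/J and -0.17 in 129P3/J, all called.
Plekhh1, a gene of the pleckstrin homology domain family, had 8.74, 8.88 and 8.93 in 129P3/J and 8.93, 9.12 and 9.63 in C57BL/6J. It ranged from 8.79 to 9.29 in DBA/2J and from 8.75 to 9.04 in SWR/J. Its C57BL/6J value was 0.22 ± 0.032 (limma adjusted p = 7.0e-06). A dimmer Plekhh1 probe set gave 0.08 in C57BL/6J, which did not pass, and the dimmest gave 0.335, which passed.

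**Figure D4:**
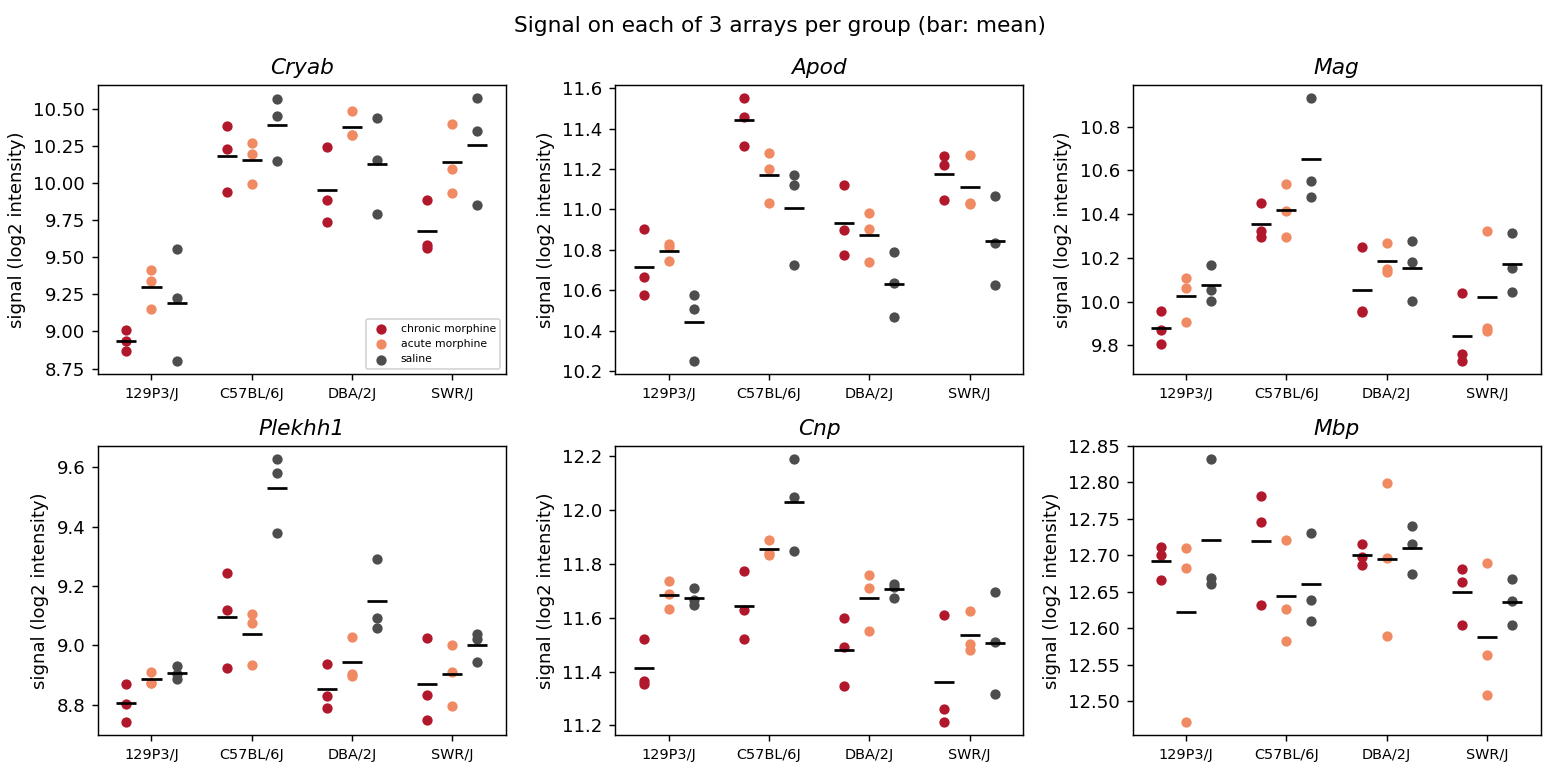
Log2 signal on each of 3 arrays per group for Cryab, Apod, Mag, Plekhh1, Cnp and Mbp, by strain, with chronic morphine, acute morphine and saline from left to right and the group mean as a bar. Cryab is lowest in 129P3/J, where all 9 arrays lie at or below 9.56, and Mbp stays between 12.47 and 12.83; each panel has its own axis.

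Of the 15 genes with several detected probe sets, Mbp had called differences of opposite sign on probe sets above the detection limit in every strain. For Mobp, Mal, Plekhh1 and Bcas1, 1 probe set was lower in the chronic than in the acute arrays while another gave a value above 0 that did not pass. Of the 8 probe sets of Mbp, one of suffix _a_at, a suffix for alternative transcripts of a gene, was higher in 129P3/J, at 8.68 ± 0.45 against 7.82 ± 0.28 in SWR/J, 7.82 ± 0.34 in C57BL/6J and 7.68 ± 0.33 in DBA/2J (SD, n = 9 each). Another of the 8 gave -0.10 in 129P3/J, also called, and the brightest gave 0.01. What the probe sets of one gene measure differently was not tested. Mobp gave a higher C57BL/6J value on all 4 probe sets, from 0.19 on the brightest to 0.55 on the dimmest.

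The arrays were also read one by one, as the number of the 33 genes above their own mean over 36 arrays. In C57BL/6J the chronic arrays had 13, 29 and 14, the acute arrays 26, 24 and 22, and the saline arrays 25, 31 and 31. The chronic arrays numbered 2 stood apart: 19 in DBA/2J and 19 in SWR/J, where the other chronic arrays had 6 and 6, and 4 and 3. In 129P3/J the chronic arrays had 5, 4 and 7. The share of all genes above their own mean also varied between the chronic arrays. It was 39.35, 50.45 and 44.42% in DBA/2J and 37.3, 52.48 and 43.57% in SWR/J. In C57BL/6J this share was 38.28, 56.13 and 53.82%, and in 129P3/J it was 49.71, 55.01 and 46.8%. With all arrays numbered 2 left out, an alternative chosen after the data were seen, the strain effect passed for 11 genes. The morphine effect then passed for 19 genes, and 16 fell after chronic morphine. No share of all genes called is given for this alternative.

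**Figure D5:**
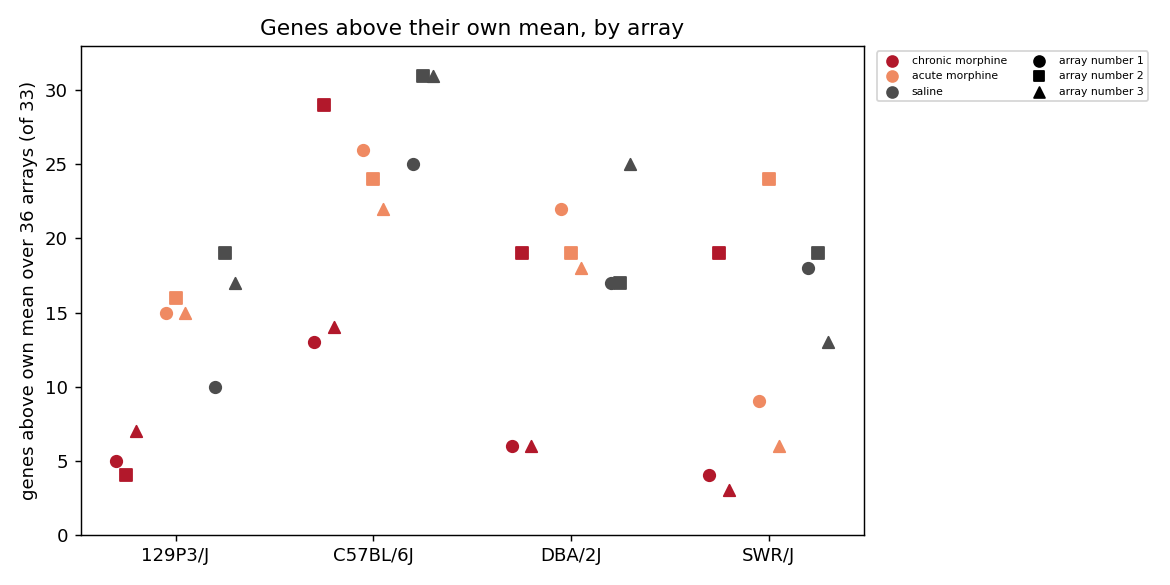
Number of the 33 genes above their own mean over 36 arrays on each array, by strain, with chronic morphine, acute morphine and saline from left to right and a marker shape for the array number. The chronic arrays numbered 1 or 3 lie at 14 or below in every strain, and the C57BL/6J saline arrays at 25 to 31.

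Markers of other cells were read beside these results. Of 10 cortical excitatory neuron markers 8 were measured. They summed to 11.65 to 12.53 after chronic morphine, 11.64 to 12.22 after acute morphine and 11.45 to 12.10 after saline, with a median difference of 0.44 after chronic morphine and 2 called higher. Their mean over genes, each centred on its own mean, was -0.49 in C57BL/6J saline arrays, the group in which the 33 genes were highest. The SD of this mean over the 3 arrays was 0.48, about as large as the value. Of 8 measured microglial markers 3 were higher in C57BL/6J, with a sum of 12.35 to 12.73 there, against 11.98 to 12.45 in the other strains. Of 12 astrocyte markers 2 rose and 2 fell after chronic morphine, and of 16 glucocorticoid-responsive genes 7 rose after chronic and 12 after acute morphine. Of the 8 measured medium spiny neuron markers 0 rose and 3 fell after chronic morphine, Drd2, Rgs9 and Bcl11b, with a median difference of -0.12, and 0 were called with the random block. Their centred mean was -0.07 after chronic morphine, -0.01 after acute morphine and 0.07 after saline, and it was lower after chronic morphine than after saline in each strain. Of all genes, 4.39% fell and 1.35% rose after chronic morphine, 2.92% rose after acute morphine, and 6.46% were higher in C57BL/6J. The part of these markers in the myelin values was not tested.

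A further 29 measured genes of myelin and of the oligodendrocyte lineage were counted. After chronic morphine 10 fell and 0 rose, against 4.39% of all genes lower and 1.35% higher. After acute morphine 10 fell and 1 rose, against 1.74% lower and 2.92% higher. In C57BL/6J 15 were higher and 0 lower, against 6.46% higher and 4.52% lower. With the random block 4 fell after chronic and 3 after acute morphine, against 0.34% and 0.136% of all genes. Olig2, a transcription factor of the lineage, fell by 0.69 ± 0.074 after chronic and by 0.46 ± 0.074 after acute morphine (limma adjusted p = 4.1e-06 and 0.00038). Ugt8a, which makes the myelin lipid galactosylceramide, fell by 0.60 after chronic and fell by 0.49 after acute morphine. Aspa, which breaks down N-acetylaspartate, fell by 0.48 and fell by 0.39. Olig1 fell by 0.22 after chronic morphine and differed by 0.02 after acute morphine. Galc, which degrades galactosylceramide, was above the detection limit on all 9 arrays of C57BL/6J and of DBA/2J and on 0 arrays of 129P3/J and SWR/J. It was kept only through C57BL/6J and DBA/2J, so nothing is drawn from it, and any part of it in the C57BL/6J count is a description. Ppp1r14a was at -0.50 in 129P3/J and 0.37 in C57BL/6J. Of the 8 measured oligodendrocyte precursor markers 2 fell after chronic morphine.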

How the data were processed

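The authors hybridised striatal RNA of 36 pools of 3 mice to Affymetrix Mouse Genome 430 2.0 arrays and deposited 1 intensity per probe set and array, a model-based expression index from dChip with perfect and mismatch probes after quantile normalization. Other summaries are not analysed here. Intensities were log2 transformed. Probe sets above 6.64 on at least 9 arrays were kept, and 64 controls and 1 probe set with missing values left out. Array number limits the precision. limma 3.58.1 (R 4.3.3) was fitted with 12 group means (24 residual degrees of freedom), with Benjamini-Hochberg adjustment over all 27212 detected probe sets, at 1% for F-tests and 0.05 for contrasts. p-values measure the spread between pools. Symbols were updated through Entrez identifiers. The random block of treatment and number had a correlation of 0.242. The fits were tested on simulated data with independent noise on each array. Arrays of the same treatment and number shared nothing there, so the simulation cannot speak to the block result. The members and lists were chosen with earlier results of these data known. Genes given in full were the 6 smallest p for strain and for morphine, the 3 smallest for interaction, the brightest of each role group, and those whose probe sets disagreed. Alternatives comprised filters, scalings, blocks, weights, thresholds and arrays left out.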

Additional observations from a re-analysis of the deposited data

How the results depend on the processing

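The numbers do not mark a shared litter or batch in the labels. Arrays of the same treatment and number in different strains deviated together (mean correlation 0.264 over 54 pairs, lowest -0.473), while arrays of the same number in different treatments did not (0.0436 over 144 pairs), so the block result is given here as a limit. With a random replicate block the morphine effect was called for 3 genes, chronic minus saline for 5 lower and 0 higher, acute minus saline for 2 lower and 0 higher, chronic minus acute for 4 lower and 0 higher, and SWR/J against the mean for 9. With number as a fixed replicate block, chronic morphine in C57BL/6J called 13 and acute morphine in DBA/2J 3. With array weights the morphine effect was called for 25 genes, DBA/2J against the mean for 11, SWR/J for 9, chronic morphine for 1 in 129P3/J and 11 in DBA/2J, and acute morphine for 7 in C57BL/6J and 7 in DBA/2J. Shares of all genes called are given only for the main fit, the morphine tests with the random block and the comparisons over chosen strains or within a treatment. Counts under other settings, in this section and before it, have no such share and are a description. A setting can change the calls of all genes, which was not tested.

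At 5% for F-tests and 0.01 for contrasts the morphine effect was called for 23 genes, acute minus saline for 5 lower and 0 higher, chronic minus acute for 5 lower and 0 higher, chronic morphine in C57BL/6J for 2, acute morphine in DBA/2J for 0, DBA/2J against the mean for 2 and SWR/J for 3. Without the 3 saline arrays that stand apart, acute minus saline called 0 higher, chronic minus acute 1 higher, chronic and acute morphine in C57BL/6J 2 and 2, acute morphine in DBA/2J 0 and DBA/2J against the mean 4. Without a filter on signal, chronic minus acute called 0 higher and chronic morphine in C57BL/6J 3. With median centring chronic minus acute called 1 higher. With the mean of all probe sets of a gene, acute minus saline and chronic minus acute called 1 higher each, and the 129P3/J value of Adamts4 was reversed at -0.60, a mean that takes in a probe set above the detection limit on 0 of the 9 arrays of 129P3/J. The cause of the other changes was not tested.

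The following were chosen after the data were seen. With arrays numbered 2 left out, the strain effect was called for 11 genes, chronic minus acute for 1 higher and DBA/2J against the mean for 1. Over the 3 strains other than C57BL/6J, chronic minus saline called 4 lower and 0 higher, acute minus saline 4 lower, and chronic minus acute 1 higher. C57BL/6J against the mean called 7 within chronic morphine and 2 within acute morphine.

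Leaving out 1 array at a time, the strain effect was called for 14 to 21 genes, the morphine effect for 14 to 17 and the interaction for 0. Chronic minus saline called 12 to 20 lower and 1 higher, acute minus saline 6 to 8 lower and 1 to 2 higher, and chronic minus acute 9 to 16 lower and 0 to 2 higher. Chronic morphine called 2 to 18 in C57BL/6J and 0 in the other strains, 18 being reached without chronic array 2. Acute morphine called 0 to 3 in DBA/2J, 3 being reached without saline array 2, 1 to 5 in C57BL/6J, and 0 in both SWR/J and 129P3/J. Against the mean of strains, 18 to 22 were called in C57BL/6J, 10 to 13 in 129P3/J, 3 to 7 in SWR/J and 4 to 7 in DBA/2J. The 4 in DBA/2J came without saline array 3, acute array 1 or chronic array 3, and the 3 in SWR/J without saline array 3, acute array 1 or chronic array 1 or 3. The rise of 1 gene fewer after acute morphine came without 129P3/J saline array 1. Dim genes near the detection limit, such as Tmem125 and Gjb1, are limited by signal over background.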
